A study of Mus musculus with 12 samples.

Results

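The transcripts of 10 nuclear factors that mark signalling through the T cell receptor were followed in mouse CD4+ T cells treated with metformin, FK506 or both: Nr4a1, Nr4a2, Nr4a3, Egr1, Egr2, Egr3, Nab2, Tox, Irf4 and Ikzf3. The members were the entries of the deposited table that carry these symbols, and all 10 of them, of 45777 genes listed, also passed the filter on low values that left 15197 genes to be tested. CD4+ T cells came from the spleens of wild-type C57BL/6 mice aged 7 weeks. Every culture was kept for 3 days in RPMI medium with heat-inactivated fetal calf serum and received anti-CD3 (0.5 µg/ml), so no group was left unstimulated. The study's methods also list soluble anti-CD28 and older mice, which the labels do not, and the labels were followed. The 4 groups of 3 samples were anti-CD3 with no drug (Control), with metformin (Metformin), with FK506 (FK506), and with both drugs (Metformin+FK506). The drug doses of these cultures are not given in the sources used here, and the labels do not say whether the 3 samples of a group came from separate animals or cultures, so the p-values measure only the spread between these samples.

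Nr4a1, Nr4a2 and Nr4a3 encode orphan nuclear receptors that are switched on within hours of antigen receptor signalling and that restrain T cell responses. Egr1, Egr2 and Egr3 encode zinc finger factors of the same early wave, Egr2 and Egr3 being linked to T cell anergy, and Nab2 encodes a corepressor that binds EGR proteins. Tox encodes an HMG-box factor tied to T cell exhaustion, Irf4 a factor whose level follows the strength of receptor signalling and that serves effector differentiation, and Ikzf3 the Ikaros family factor Aiolos. FK506 (tacrolimus) blocks the phosphatase calcineurin, which activates NFAT factors, and metformin is a biguanide that impairs mitochondrial complex I.

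The stretch before the start of transcription is shown for the NR4A genes and for Irf4 as examples. Nr4a1 rose and Irf4 fell in every comparison with Control. Nab2, which is not shown, also fell in each of them, and Nr4a2 and Nr4a3 moved in both directions. Sequences are RefSeq promoter entries of build GRCm38.p6, and of the 9 members looked up, which leave out Egr1, 6 matched an entry: Nr4a1, Nr4a2, Nr4a3, Egr2, Nab2 and Irf4. Capitals mark TGACG, the core of the cyclic AMP response element, on either strand (CGTCA on the strand shown), and the EGR site GCGNGGGCG on either strand; the marked motifs do not overlap. The Nr4a1 stretch is chr15:101266596-101266845 on the plus strand, the Nr4a2 stretch chr2:57124004-57124253 on the minus strand, the Irf4 stretch chr13:30748983-30749225 on the plus strand, and for Nr4a3 only a run of 30 bases is printed, chr4:48045072-48045101 on the plus strand, chosen to hold 2 of its matches, since annotated transcripts start inside its window.
Nr4a1: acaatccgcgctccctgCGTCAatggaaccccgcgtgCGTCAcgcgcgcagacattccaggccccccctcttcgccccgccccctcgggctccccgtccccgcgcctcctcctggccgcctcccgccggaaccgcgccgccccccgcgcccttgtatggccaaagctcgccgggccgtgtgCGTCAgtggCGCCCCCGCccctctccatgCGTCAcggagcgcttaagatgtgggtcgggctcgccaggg
Nr4a2: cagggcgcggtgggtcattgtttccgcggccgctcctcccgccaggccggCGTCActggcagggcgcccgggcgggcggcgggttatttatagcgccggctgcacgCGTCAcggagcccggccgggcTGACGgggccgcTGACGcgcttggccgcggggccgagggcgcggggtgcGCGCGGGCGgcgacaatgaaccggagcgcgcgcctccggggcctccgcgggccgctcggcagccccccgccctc
Nr4a3: ggTGACGtagcgtcccatgtCGTCAcattg
Irf4: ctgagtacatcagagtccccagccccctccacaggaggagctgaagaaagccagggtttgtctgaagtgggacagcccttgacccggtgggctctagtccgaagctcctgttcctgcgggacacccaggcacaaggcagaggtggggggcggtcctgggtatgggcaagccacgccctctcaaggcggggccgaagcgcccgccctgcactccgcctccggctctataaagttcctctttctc
TGACG occurred 4 times in the 250 bases before the RefSeq start of each of Nr4a1, Nr4a2 and Nr4a3, 0 to 2 times in the entries for Egr2, which has several starts, and not at all before Irf4 or Nab2. Of 32851 mouse promoter entries of the same length, 17.8% held TGACG at least once and 0.137% held it 4 times or more. For Nr4a3 only the first 98 of these bases precede the first annotated exon, and 3 of its 4 matches lie there, so its count is not wholly upstream of the gene. The EGR site occurred once before Nr4a1 and once before Nr4a2 and was not found before Nr4a3, Nab2, Irf4 or Egr2, and 4.7% of all entries held it. GGAAA, the core of NFAT sites, was found before Nr4a2 and in most entries for Egr2, against 55.6% of all entries, and the CArG box of serum response factor was found in most entries for Egr2 and before none of the other 5 genes, against 1.47%. Several entries for Egr2 overlap and hold the same site, so they are not separate finds. A match of letters is a description of the sequence and not a bound site.

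Levels are given below as CPM, the reads of a gene scaled to library size with edgeR's TMM factors, which is the scale of the test, and as FPKM where genes are compared with each other, since FPKM also divides by transcript length. Between 43402632 and 64290105 reads were counted per sample. A gene was called changed where its p-value from edgeR's quasi-likelihood test, adjusted by the Benjamini-Hochberg method over the 15197 genes, was under 0.05. Myeloid and B cell markers, and single markers of plasma cells and of CD8 T and NK cells, were higher in the samples with FK506. The summed FPKM of 10 myeloid markers ran from 6.9 to 7.22 in Control and from 10.7 to 12.1 in Metformin, but from 1360 to 1409 in FK506 and from 900.2 to 1036 in Metformin+FK506. That of 10 B cell markers ran from 51.3 to 53.3, from 67.6 to 75.5, from 837.5 to 887.1 and from 410.3 to 441.1 in the same order of groups. The myeloid markers C1qa, C1qc and Adgre1 had 0 counts in every Control sample. All 12 T cell markers were present in every group, with summed FPKM of 2282 to 2322 in Control, 2250 to 2347 in Metformin, 1805 to 1926 in FK506 and 2026 to 2106 in Metformin+FK506. The summed plasma cell markers ranged from 68.2 to 103 over all samples, but most of that sum was Xbp1, with a mean FPKM of 91.6 in Control and 55.5 in FK506, while Jchain, the joining chain of antibodies, went from 0.354 in Control and 0.116 in Metformin to 29 in FK506 and 13 in Metformin+FK506. The summed markers of CD8 T and NK cells ranged from 9.11 to 16.5, and among them the granzyme gene Gzmk went from 0.182 and 0.13 to 3.78 and 6.29 in the same order of groups. Log2 fold changes of the members are therefore also given relative to the 12 T cell markers, where the call or direction depends on this scaling or the value moves by more than 1.5 times. The part of other cells in the results was not tested, and in bulk samples fewer cells of a type and less RNA per cell cannot be told apart.

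**Figure D1:**
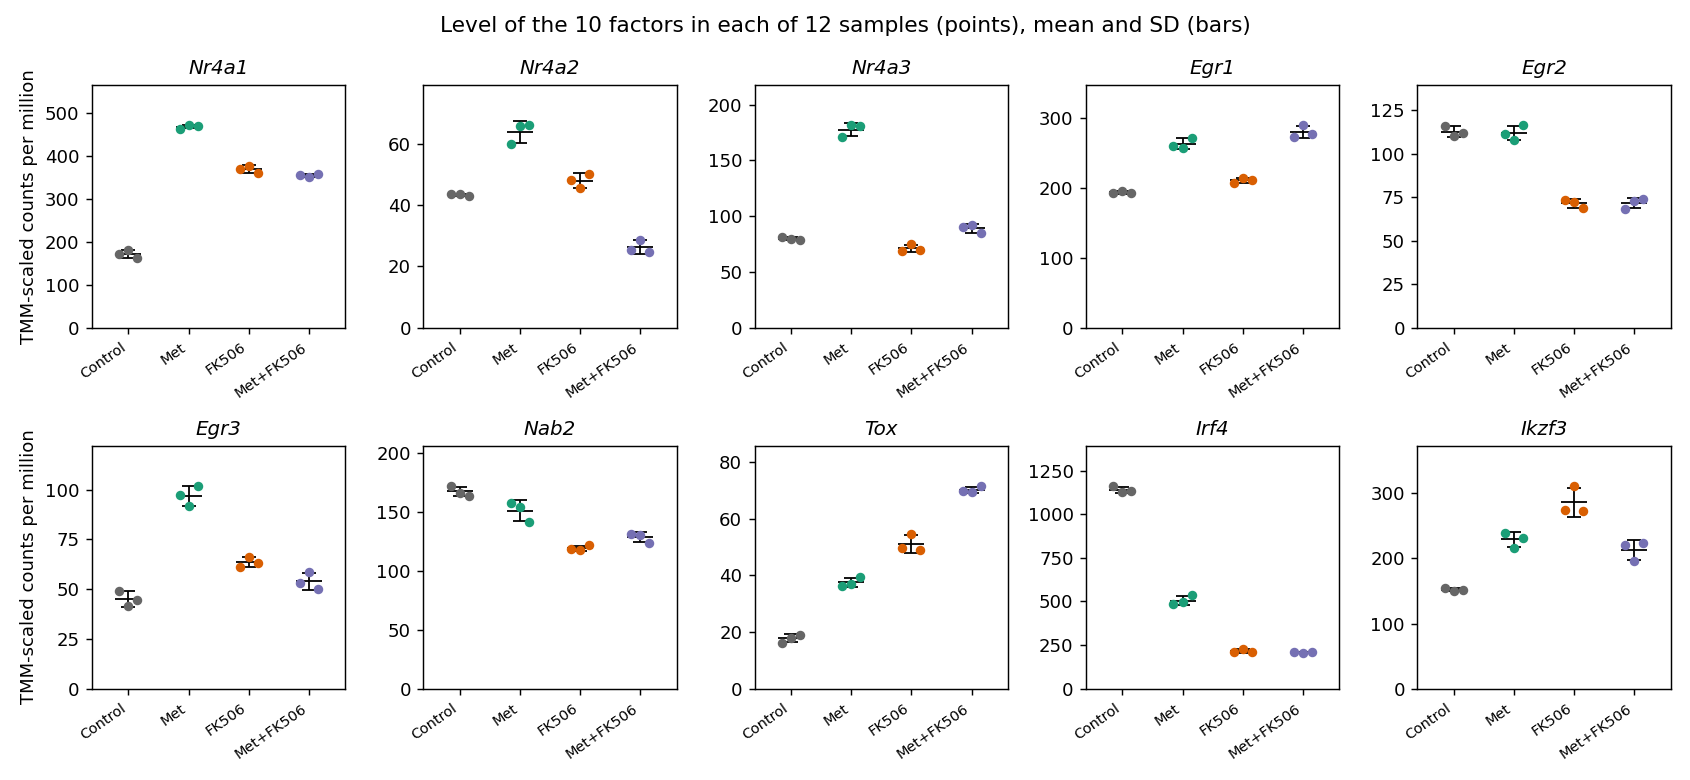
TMM-scaled CPM (y axis, linear, from 0) of each of the 10 genes in the 12 samples, with points for samples and bars for the mean and SD of 3 samples in Control, Metformin (Met), FK506 and Metformin+FK506 (Met+FK506). Irf4 was highest in Control (1126 to 1162), Tox was highest in Metformin+FK506 (69.6 to 71.6), and Nr4a1 was lowest in Control (162 to 180.1).

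Against Control, all 3 NR4A genes were called higher with metformin, whereas with FK506 Nr4a1 and Nr4a2 were called higher and Nr4a3 lower. On the log2 scale, Nr4a1 rose by more than 1 with either drug alone, Nr4a3 only with metformin and Nr4a2 with neither. Nr4a1, also called Nur77, had a CPM of 171, 180.1 and 162 in Control, 462.5, 470.1 and 468.6 in Metformin, 370, 376.5 and 359.6 in FK506, and 354.3, 350.9 and 356.6 in Metformin+FK506. None of the 4 groups overlapped, and every treated sample lay above every Control sample. The rise was 2.73-fold with metformin (log2 fold change 1.45, SE 0.038), 2.16-fold with FK506 (1.11, SE 0.038) and 2.07-fold with both (1.05, SE 0.038), with adjusted p of 1.73e-13 or lower in edgeR's quasi-likelihood test. Relative to the T cell markers these values were 1.48, 1.69 and 1.45.

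Nr4a2, the paralog also known as Nurr1, had a CPM of 43.5, 43.5 and 42.9 in Control, 59.8, 65.7 and 66 in Metformin, 48.2, 45.6 and 50.2 in FK506, and 25.4, 28.8 and 24.8 in Metformin+FK506. The single drugs lay above Control and the combination lay below it, with no overlap between any of the groups. Its log2 fold change against Control was 0.56 (SE 0.059) with metformin, 0.15 (SE 0.059) with FK506 and -0.71 (SE 0.061) with both. The FK506 value had an adjusted p of 0.0307 and lost its call without a filter on low values (adjusted p = 0.129) and when Control replicate 1, 2 or 3 or FK506 replicate 1 or 3 was left out (adjusted p up to 0.0925). On other scales it was larger, at 0.38 on log2(FPKM + 1), 0.62 on log2(TPM + 1) and 0.73 relative to the T cell markers. The fall with both drugs kept its direction relative to the T cell markers, at -0.32.

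Nr4a3, the third NR4A paralog, had a CPM of 80.9, 79.9 and 78.9 in Control, 170.5, 181.3 and 181 in Metformin, 68.5, 75 and 69.6 in FK506, and 90.2, 92.5 and 84.8 in Metformin+FK506. The Metformin samples stood above all others. The log2 fold change was 1.15 (SE 0.044) with metformin, -0.17 (SE 0.045) with FK506 and 0.16 (SE 0.045) with both. The direction with FK506 depended on the scaling: Nr4a3 was at 0.02 on the deposited FPKM scale, with overlapping groups, and at 0.41 relative to the T cell markers. With both drugs it was at 0.56 relative to the T cell markers.

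Per length, Nr4a1 held most of the NR4A transcript in every group. It made up 71.1% ± 0.958 (SD, n = 3) of the summed NR4A FPKM in Control, 78.5% ± 0.639 in Metformin, 84.4% ± 0.454 in FK506 and 85.5% ± 0.749 in Metformin+FK506. These are ratios within a library, so a common scaling of a sample does not change them. The Nr4a2 share went from 13.7% ± 0.511 in Control to 8.14% ± 0.364, 8.46% ± 0.602 and 4.85% ± 0.445 in the same order, and the Nr4a3 share from 15.2% ± 0.478 to 13.4% ± 0.276, 7.18% ± 0.33 and 9.61% ± 0.352. The summed NR4A FPKM was 80.6 ± 3.53 in Control, 207 ± 3.54 in Metformin, 173 ± 3.66 in FK506 and 161 ± 2.73 in Metformin+FK506.

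**Figure D2:**
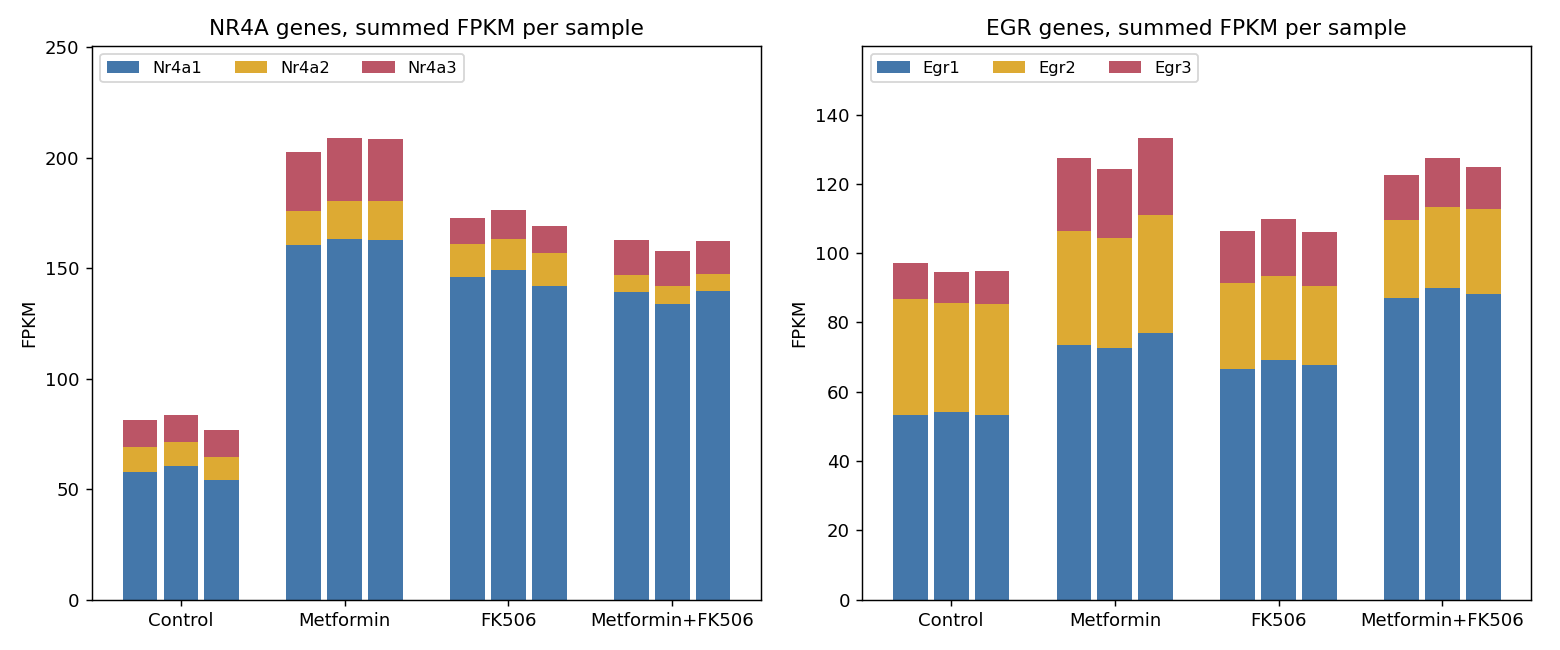
FPKM (y axis, linear, from 0) of the NR4A genes (left) and the EGR genes (right), stacked per sample, 3 bars for each of the 4 groups. The NR4A sum was 76.7 to 83.6 in Control and 157.6 or more in all treated samples, and Egr1 was the largest part of each EGR bar.

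The EGR genes did not move as a block. Egr1 was higher in every treated group, Egr3 rose most with metformin, and Egr2 was lower in both groups with FK506. Egr1, an immediate-early activator, had a CPM of 191.9, 195.7 and 193.2 in Control, 259.5, 256.7 and 271.5 in Metformin, 206.9, 214 and 211.1 in FK506, and 272.1, 289 and 276.5 in Metformin+FK506. No groups overlapped, and the Metformin+FK506 samples were the highest. Its log2 fold change against Control was 0.44 (SE 0.035) with metformin, 0.12 (SE 0.035, adjusted p = 0.00427) with FK506 and 0.53 (SE 0.035) with both. The FK506 value was 0.57 on log2(TPM + 1) and 0.70 relative to the T cell markers, and in TPM the FK506 samples lay above the Metformin samples. The value with both drugs was 0.93 relative to the T cell markers.

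Egr2, which drives anergy genes and restrains effector cytokines, had a CPM of 115.9, 109.9 and 111.7 in Control, 111.3, 108.1 and 116.2 in Metformin, 73.4, 72.5 and 68.7 in FK506, and 68.2, 73 and 73.8 in Metformin+FK506. Control and Metformin overlapped, FK506 and Metformin+FK506 overlapped, and the former pair lay above the latter. With metformin alone the log2 fold change was -0.01 with a 95% interval from -0.10 to 0.08 (adjusted p = 0.907), while with FK506 it was -0.65 (SE 0.043) and with both -0.65 (SE 0.043). Relative to the T cell markers the FK506 value was -0.07 (adjusted p = 0.153), which is not past the threshold, and that of the combination was -0.25.

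Egr3, which shares functions in anergy with Egr2, had a CPM of 49.2, 41.4 and 44.5 in Control, 97.4, 91.6 and 101.7 in Metformin, 61, 66 and 63.3 in FK506, and 53.2, 58.6 and 49.8 in Metformin+FK506. The Control samples lay below all the others and the Metformin samples above them. The log2 fold change was 1.11 (SE 0.067) with metformin, 0.49 (SE 0.067) with FK506 and 0.26 (SE 0.068, adjusted p = 0.00209) with both. Egr3 was at 1.08 with FK506 and 0.66 with both relative to the T cell markers. Within the EGR sum of FPKM, Egr1 went from 56.2% ± 1.24 in Control to 58% ± 0.413 in Metformin, 63.2% ± 0.575 in FK506 and 70.8% ± 0.214 in Metformin+FK506, while Egr2 went from 33.8% ± 0.494 to 25.6% ± 0.0609, 22.2% ± 0.807 and 18.8% ± 0.617. Egr3 held 10% ± 0.746, 16.4% ± 0.357, 14.6% ± 0.357 and 10.4% ± 0.613.

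Nab2, which EGR proteins induce and which then represses their targets, had a CPM of 171.8, 166.3 and 163.8 in Control, 157.4, 154.5 and 141.3 in Metformin, 118.5, 117.2 and 121.5 in FK506, and 131.3, 130.5 and 123.4 in Metformin+FK506. On this scale the FK506 samples were the lowest and no groups overlapped. The log2 fold change was -0.15 (SE 0.042, adjusted p = 0.0074) with metformin, -0.49 (SE 0.043) with FK506 and -0.38 (SE 0.043) with both. The direction with FK506 depended on the scaling: Nab2 stood at 0.09 relative to the T cell markers (adjusted p = 0.0565), and with both drugs at 0.02 (adjusted p = 0.731). The metformin value had an adjusted p of 0.0513 without Metformin replicate 3, where the log2 fold change was -0.10.

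With FK506 and with both drugs the largest changes of the set under TMM were those of Irf4 and Tox, in opposite directions, whereas with metformin the largest was that of Nr4a1. Irf4 had a CPM of 1162, 1126 and 1135 in Control, 484.8, 495.5 and 534.4 in Metformin, 208.3, 229.3 and 207.8 in FK506, and 208.6, 204.1 and 207.5 in Metformin+FK506. The FK506 and Metformin+FK506 samples overlapped at the bottom, and Metformin lay between them and Control. Irf4 was 2.26-fold lower with metformin (log2 fold change -1.18, SE 0.044), 5.3-fold lower with FK506 (-2.41, SE 0.046) and 5.52-fold lower with both (-2.46, SE 0.046). Relative to the T cell markers the falls were -1.15, -1.82 and -2.07. Irf4 is labelled in the picture of the study's Th17 heatmap of Control and Metformin+FK506, so it was shown for these samples and its direction is not independent evidence here. In FPKM, Irf4 was the highest member in Control (204 ± 3.88). Irf4 was below Nr4a1 in Metformin (92.3 ± 4.79 against 162 ± 1.5), FK506 (44.7 ± 2.69 against 146 ± 3.81) and Metformin+FK506 (42.2 ± 1.14 against 138 ± 3.44).

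Tox had a CPM of 16.3, 18 and 19.1 in Control, 36.2, 37 and 39.4 in Metformin, 49.6, 54.6 and 49.1 in FK506, and 69.8, 69.6 and 71.6 in Metformin+FK506. The order Control, Metformin, FK506, Metformin+FK506 held in every sample, with no overlap, and also held in FPKM and in TPM. Tox rose 2.11-fold with metformin (log2 fold change 1.08, SE 0.063), 2.87-fold with FK506 (1.52, SE 0.062) and 3.95-fold with both (1.98, SE 0.062), and all of these were larger relative to the T cell markers, with values of 1.10 with metformin and 2.38 with both drugs. Tox was the lowest member per length in Control, with an FPKM of 4.33 ± 0.386 (SD, n = 3). In Metformin the FPKM of Tox was 9.65 ± 0.713, in FK506 14.4 ± 0.927 and in Metformin+FK506 19.6 ± 0.48. The transcript length implied by counts and FPKM varied among samples from 3332 to 3897 bases for Tox and from 6411 to 7682 for Ikzf3, a wider range than for the other 8 members, and what this does to their FPKM values was not tested.

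Ikzf3 had a CPM of 154.3, 150.2 and 152.1 in Control, 239.7, 216.4 and 231.7 in Metformin, 273.7, 311.1 and 273.5 in FK506, and 220.1, 195.6 and 223.9 in Metformin+FK506. Metformin and Metformin+FK506 overlapped, Control lay below them and FK506 above. The log2 fold change was 0.59 (SE 0.058) with metformin, 0.91 (SE 0.058) with FK506 and 0.49 (SE 0.058) with both. Ikzf3 was at 1.49 with FK506 and 0.88 with both relative to the T cell markers. B cells also express Aiolos, and the summed B cell markers were highest in FK506 as well; their part in the Ikzf3 values was not tested.

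**Figure D3:**
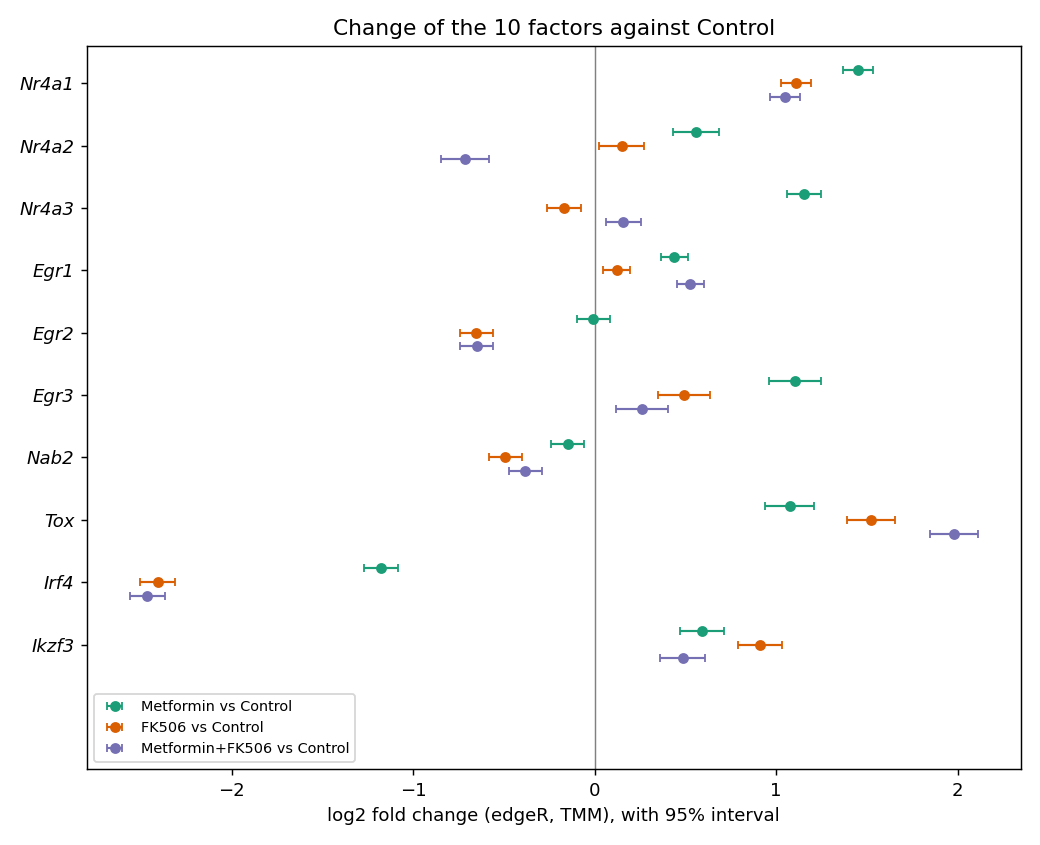
Log2 fold change against Control (x axis, edgeR with TMM scaling, bars are 95% intervals, 3 samples a group) of the 10 genes with metformin, FK506 and both. Irf4 lies furthest below 0 at -2.46 with both drugs and Tox furthest above at 1.98, and Nr4a2 changes side between the single drugs and the combination.

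Counted over the members, 6 of 10 were higher and 4 lower with FK506, against 41.3% higher and 39.6% lower of all genes tested. With metformin 7 were higher and 2 lower, against 28.6% and 27.4% of all genes, and with both drugs 6 were higher and 4 lower, against 42.1% and 39.6%. The 3 comparisons share the Control samples. The median log2 fold change of the members was 0.14 with FK506, 0.58 with metformin and 0.21 with both, where that of all genes tested was 0.02, 0.01 and 0.03. With scaling to the T cell markers, 7 members were higher and 1 lower with FK506, and 6 were higher and 3 lower with both drugs, against 64.8% and 20.4%, and 57.9% and 25.7%, of all genes. On that scale the median of all genes was 0.61 with FK506, and 76% of the genes called there were higher, compared with 51.1% under TMM, 71.2% on the TPM scale, 61.3% on the FPKM scale and 47.7% after quantile normalization of FPKM. For Metformin+FK506 against Control the share was 69.3% relative to the T cell markers, 71% on the TPM scale, 51.6% under TMM and 49.2% after quantile normalization.

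**Figure D4:**
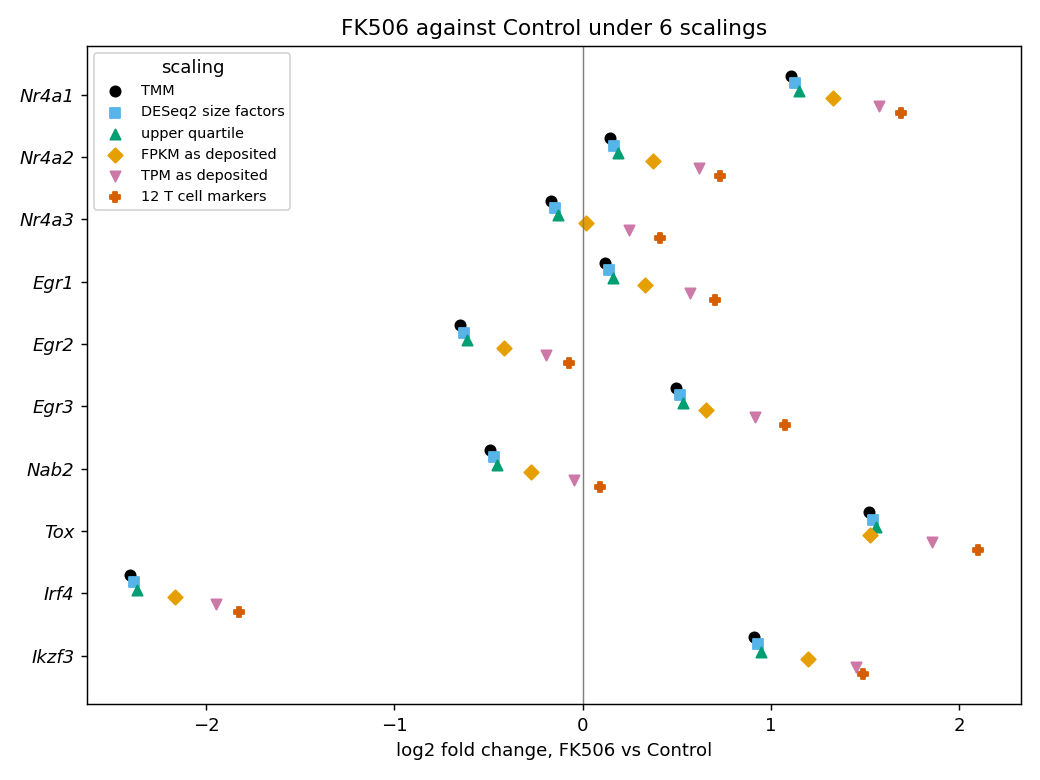
Log2 fold change of the 10 genes between FK506 and Control (x axis) under 6 scalings of the samples, each a symbol. Irf4 stays at -1.82 or lower and Tox at 1.52 or higher, while Nr4a3 and Nab2 lie on both sides of 0.

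When metformin was added to FK506, Nr4a2, Ikzf3 and Egr3 fell and Tox, Egr1 and Nr4a3 rose. Of the 10 members 3 were higher and 3 lower, against 15.6% and 15% of all genes, and the members' median was -0.03. With scaling to the T cell markers, 3 were higher and 6 lower, with a median of -0.21, against 6.12% and 43.9% of all genes and a median of -0.18. Nr4a2 fell 1.82-fold (log2 fold change -0.86, SE 0.061), Ikzf3 fell 1.34-fold (-0.43, SE 0.057) and Egr3 fell by 0.23 on the log2 scale (SE 0.067, adjusted p = 0.014). Tox rose by 0.46 (SE 0.057), Egr1 by 0.41 (SE 0.035) and Nr4a3 by 0.33 (SE 0.044). For Nr4a1 the log2 fold change was -0.06, with a 95% interval from -0.14 to 0.02 (adjusted p = 0.254), for Irf4 -0.06 with an interval from -0.15 to 0.04 (adjusted p = 0.348), for Egr2 0.00 with an interval from -0.09 to 0.09, and for Nab2 0.11 with an interval from 0.02 to 0.20 (adjusted p = 0.0635). Relative to the T cell markers, which were higher in Metformin+FK506 than in FK506, Nr4a1 was at -0.24, Irf4 at -0.24 and Egr2 at -0.18, all past the threshold, and Nab2 at -0.08 (adjusted p = 0.158). Tox was at 0.28, Egr1 at 0.22, Nr4a3 at 0.14 and Egr3 at -0.42 on that scale, and 12.2% of the genes called were higher, compared with 50.9% under TMM.

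The interaction, the effect of metformin with FK506 minus its effect without it, was tested in the same fit. It was past the threshold for 8 members, 2 of them positive and 6 negative, against 22.5% and 24% of all genes. The negative ones were Nr4a1 (-1.51, SE 0.053), Nr4a2 (-1.42, SE 0.085), Egr3 (-1.34, SE 0.095), Ikzf3 (-1.02, SE 0.081), Nr4a3 (-0.82, SE 0.063) and Tox (-0.61, SE 0.085). Irf4 was positive (1.12, SE 0.062), its change with metformin being -1.18 without FK506 and -0.06 with it, as was Nab2 (0.26, SE 0.06, adjusted p = 0.00226). For Egr1 the interaction was -0.03, with a 95% interval from -0.14 to 0.07, and for Egr2 it was 0.01, with an interval from -0.12 to 0.14. With scaling to the T cell markers, Egr1 (-0.25) and Egr2 (-0.20) passed the threshold and Nab2 (0.04) did not, and the share of positive values among all genes called went from 48.3% to 23.9%. The other 7 called members kept their sign and call under that scaling, which left 1 member positive and 8 negative, against 12.7% and 40.2% of all genes.

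**Figure D5:**
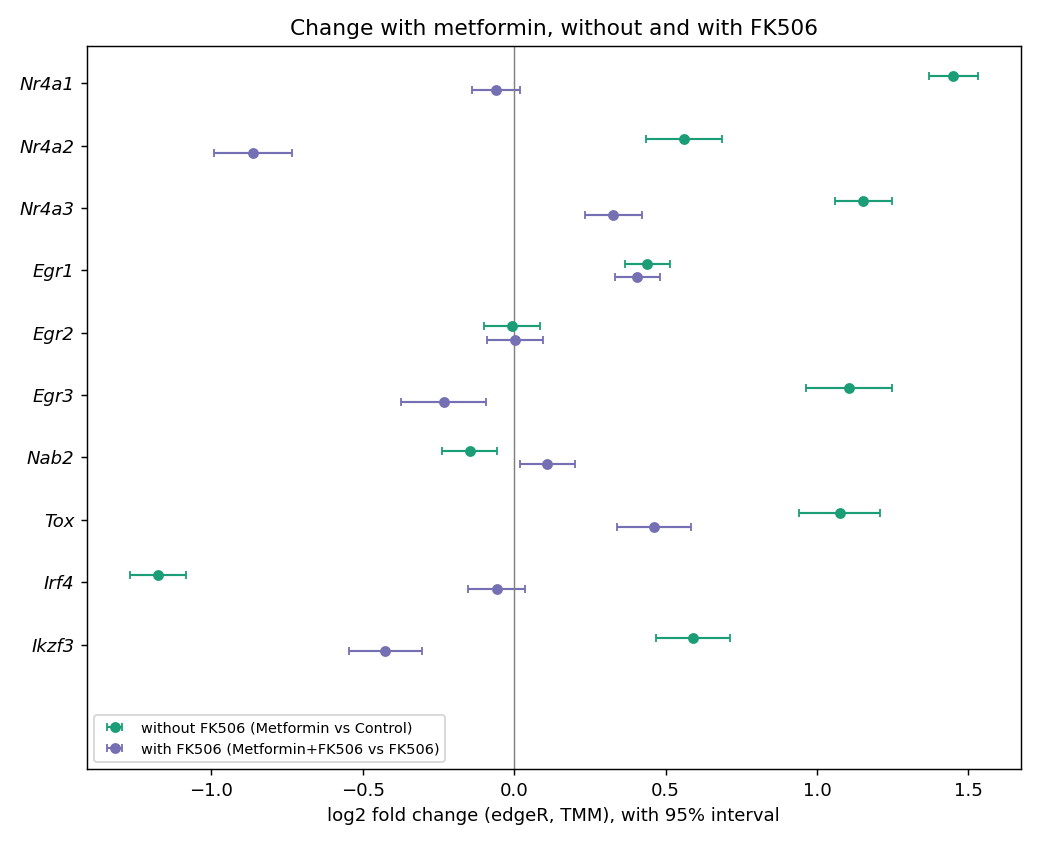
Log2 fold change with metformin (x axis, edgeR with TMM scaling, bars are 95% intervals) without FK506 (Metformin against Control) and with FK506 (Metformin+FK506 against FK506). The points lie 1.51 apart for Nr4a1 and 0.03 apart for Egr1.

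When FK506 was added to metformin, 2 members were higher and 7 lower, against 40.3% and 37.9% of all genes, and the members' median was -0.52 against 0.02 for all genes. Scaled to the T cell markers, 4 were higher and 5 lower, against 57.9% and 23.2% of all genes, with a median of -0.15 against 0.39. Irf4 fell 2.44-fold (log2 fold change -1.29, SE 0.044), Nr4a2 fell 2.42-fold (-1.27, SE 0.061) and Nr4a3 fell 1.99-fold (-0.99, SE 0.044). Egr3 fell by 0.84 (SE 0.066), Egr2 by 0.64 (SE 0.043), Nr4a1 by 0.40 (SE 0.037) and Nab2 by 0.23 (SE 0.043). Tox rose by 0.91 (SE 0.059). Egr1 stood at 0.09 (SE 0.034, adjusted p = 0.0276), a call lost without a filter on low values (adjusted p = 0.263) and without Metformin replicate 1 (adjusted p = 0.0826), Metformin replicate 2 (0.108) or Metformin+FK506 replicate 2 (0.0678). Relative to the T cell markers Nr4a1 was at -0.03 (adjusted p = 0.441), Nab2 reversed to 0.14 and Ikzf3, at -0.11 under TMM (adjusted p = 0.103), stood at 0.26, past the threshold, while the falls of Irf4 (-0.92), Nr4a2 (-0.91) and Nr4a3 (-0.63) and the rise of Tox (1.27) were past the threshold. On that scale Egr1 was at 0.46, Egr2 at -0.28 and Egr3 at -0.48. Among all genes called, 71.4% were higher on that scale, 75.5% on the TPM scale, 51.6% under TMM and 48.1% after quantile normalization.

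The lists that follow are read against the shares of all genes, which were 41.3% higher and 39.6% lower with FK506 and 28.6% and 27.4% with metformin under TMM, and 64.8% and 20.4% with FK506 relative to the T cell markers. Counts on the latter scale were added after those under TMM had been seen. Tox2 and Ikzf2, relatives of the members, rose further with FK506 than any member did. Tox2 had a mean FPKM of 0.144 in Control and 0.206 in Metformin, under the filter value of 0.5, and 4.84 in FK506. Of 15 tested relatives (Egr4, Nab1 and the other TOX, Ikaros and IRF genes), 8 were higher and 5 lower with FK506 and 4 higher and 5 lower with metformin, with medians of 0.36 and 0.03. Of the 15, 14 were higher and 1 lower with FK506 relative to the T cell markers. Tox2, the TOX paralog, rose by 4.67 on the log2 scale (SE 0.14) with FK506 and by 0.58 with metformin, and Ikzf2, which encodes Helios and was displayed by the study among Treg genes of these samples, rose by 2.42 with FK506. Irf7, an interferon response factor, fell by 2.13 with FK506 and by 3.67 with metformin.

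Other genes of the early wave were split. Among 24 immediate-early and ERK feedback genes, 11 were higher and 10 lower with FK506, 7 higher and 12 lower with metformin, and 16 higher and 8 lower in Metformin+FK506 against Metformin, with medians of 0.05, -0.14 and 0.60. The counts relative to the T cell markers were 16 higher and 8 lower with FK506, and 18 higher and 4 lower in Metformin+FK506 against Metformin, where 57.9% of all genes were higher and 23.2% lower on that scale and 40.3% and 37.9% under TMM. Fosb, a dimer partner of Jun proteins, rose by 4.54 with FK506 and Fos by 2.35, while Myc fell by 2.88 and Spry1, an inhibitor of ERK signalling, fell by 2.45. The mean FPKM of Fosb was as low as 0.247 in Control and 6.71 in FK506. With metformin Fos rose by 1.19 and Ier3 fell by 2.19. Of 10 calcineurin-NFAT genes, 3 were higher and 4 lower with FK506, and 7 higher and 3 lower relative to the T cell markers. Ppp3ca, a catalytic subunit of calcineurin, rose by 2.25, and Fkbp1a, which encodes the FK506-binding protein, fell by 1.84.

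Of 14 genes linked to EGR2, EGR3 and anergy, 5 were higher and 9 lower with FK506 and 8 higher and 6 lower with metformin, with medians of -0.54 and 0.27. Of the 14, 6 were higher and 6 lower with FK506 relative to the T cell markers, with a median of 0.04 where that of all genes was 0.61. Tnfrsf9, a costimulatory receptor, fell by 3.54 with FK506 and by 1.61 with metformin, and Lag3, an inhibitory receptor, fell by 2.77 with FK506. Nrgn rose by 4.65 with FK506 and by 1.70 with metformin, and Rnf128, the ubiquitin ligase GRAIL, rose by 2.37 with FK506 and fell by 2.07 with metformin. Both were low in Control, with a mean FPKM of 0.353 for Nrgn and 0.506 for Rnf128, and Rnf128 stood at 0.121 in Metformin. Of 7 tested inhibitory receptors, 3 were higher and 4 lower with FK506 and 1 higher and 5 lower with metformin, and relative to the T cell markers 3 were higher and 3 lower with FK506. Ctla4 fell by 1.86 and by 0.93, and Entpd1 rose by 3.01 with FK506. In the same comparisons the summed myeloid markers were as given above, and Entpd1 is also a gene of B and myeloid cells.

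Of 11 partners and targets of IRF4, 5 were higher and 6 lower with FK506 and 2 higher and 8 lower with metformin, with medians of -0.21 and -1.13. Of the 11, 6 were higher and 5 lower with FK506 relative to the T cell markers, with a median of 0.37. The cytokine Il21, another gene of the study's Th17 display, fell by 6.39 with FK506 and by 2.96 with metformin, Junb fell by 1.71 with FK506, and Il10 fell by 3.67 with metformin. Bcl6, a repressor of effector fates, rose by 3.03 with metformin. Spi1 and Spib, partners of IRF4 that are expressed in myeloid and B cells, rose by 5.35 and 4.20 with FK506, as all 10 myeloid and all 10 B cell markers did. Of the 3 tested markers of plasma cells Jchain rose 69-fold and Xbp1 fell 1.91-fold with FK506, and of the 3 of CD8 T and NK cells Gzmk rose 17-fold and Cd8b1 fell 1.69-fold.

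Over the 12 samples, the genes whose log2(FPKM + 1) followed each member most closely, among tested genes with a mean FPKM of at least 1, are given as a description, and the samples share their treatment groups. Irf4 was followed by Chsy1 (r = 0.998), Upp1 and Fads2, Tox by Endod1 (r = 0.994), Zscan26 and Smpdl3a, and Nr4a1 by Rasgef1a (r = 0.994), Ube2h and Ppp1r16b. For Nr4a3 they were Nfe2l1 (r = 0.988), Senp6 and Zfp827, for Nr4a2 Ino80c (r = 0.96), Gdi2 and Gm42102, and for Ikzf3 Ndrg3 (r = 0.989), Pdk2 and Mbp. For Egr1 they were Zfpm1 (r = 0.985), Cd3e and Rbbp6, for Egr2 Rpusd4 (r = 0.99), Gm11687 and Rpl27, for Egr3 Pde3b (r = 0.982), Usp11 and Slc25a23, and for Nab2 Strn3 (r = 0.957), Gm14435 and Scarb1. No member was among the 3 nearest genes of another member.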

How the data were processed

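Poly(A) RNA of 12 samples was sequenced on a NovaSeq instrument. The authors deposited, for 45777 genes and each sample, read counts, FPKM values and TPM values; the submitters' processing notes name bcl2fastq 2.20.0, Trimmomatic, HISAT2 2.1.0, StringTie 2.1.3b and build mm10. The handling of strand and of reads shared by paralogs is not given in the sources used here, so values of near-identical genes are uncertain.

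Counts were tested with edgeR 4.0.16 (TMM, glmQLFit, glmQLFTest, two-sided) in R 4.3.3, for genes that reached an FPKM of 0.5 in 3 or more samples, with all 4 groups in 1 fit (8 residual degrees of freedom). There were 5 comparisons and the interaction. The members and gene lists were chosen with earlier results of these data known. All members were named, and of each list the 2 largest rises and 2 largest falls past the threshold were candidates for naming. Alternatives used DESeq2 1.42.0, limma 3.58.1, other scalings and filters, scaling to 12 T cell markers, and leaving out each sample. Each member had at least 735 counts in every sample.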

Additional observations from a re-analysis of the deposited data

Results flagged for a closer look

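For 8 of the 10 genes the change with metformin differed between cultures with and without FK506 by a test of the difference itself (edgeR's quasi-likelihood test of the interaction, adjusted over all 15197 genes, 3 samples a group). The differences on the log2 scale, with FK506 minus without, were -1.51 for Nr4a1, -1.42 for Nr4a2, -0.82 for Nr4a3, -1.34 for Egr3, 0.26 for Nab2, -0.61 for Tox, 1.12 for Irf4 and -1.02 for Ikzf3. Of all genes tested, 7064 passed the same threshold. Against Control, the 8 genes stood in FK506 at 1.11 for Nr4a1, 0.15 for Nr4a2, -0.17 for Nr4a3 and 0.49 for Egr3. Nab2 stood there at -0.49, Tox at 1.52, Irf4 at -2.41 and Ikzf3 at 0.91. Whether these values bear on the differences was not tested. The summed B cell markers fell from a mean FPKM of 869 in FK506 to 422.5 in Metformin+FK506 and rose from 52.1 in Control to 71.6 in Metformin; their part in these differences was not tested.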

How the results depend on the processing

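Of 1430 values of the 10 genes under other settings, 1351 kept their direction and their side of the threshold, 23 lost a call, 8 gained one and 48 changed sign. The signs of Nr4a1, Tox, Irf4 and Ikzf3 against Control, and of the called interactions other than that of Nab2, kept both direction and call in every setting run at the same threshold. Counts of called members lay at 9 to 10 with FK506, 8 to 9 with metformin, 10 to 10 with both, 6 to 7 for metformin added to FK506, 8 to 9 for FK506 added to metformin, and 8 to 8 for the interaction when single samples were left out. In the same fits and order, of 15197 genes, 11901 to 12477, 7753 to 8821, 11990 to 12392, 3672 to 4745, 11427 to 11868 and 6485 to 7093 were called.

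Asking also for a log2 fold change of at least 1 left 3, 5, 3, 0, 2 and 5 members in that order, and 5556, 1589, 5677, 640, 4897 and 1813 of all genes. Scaling to the T cell markers raised the genes called for metformin added to FK506 from 4660 to 7598. It turned FK506 against Control to 0.41 for Nr4a3 and 0.091 for Nab2, both drugs against Control to 0.016 for Nab2, FK506 added to metformin to 0.14 for Nab2 and 0.26 for Ikzf3, metformin added to FK506 to -0.18 for Egr2 and -0.075 for Nab2, and the Egr2 interaction to -0.20. TPM values, an alternative chosen after seeing the data, gave 0.25 for Nr4a3 with FK506, 0.070 for Nab2 with both drugs, and 0.085, 0.24 and 0.45 for Nr4a1, Nab2 and Ikzf3 for FK506 added to metformin. FPKM values gave 0.018 and 0.019 for Nr4a3 with FK506 under pseudocounts of 1 and 0.1, and 0.13 for Ikzf3 for FK506 added to metformin (0.033 after quantile normalization, which also put Nr4a1 at 0.015 for metformin added to FK506).

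All other changes of sign were in Egr2, which had no call there. With metformin it was at 0.024 on FPKM with either pseudocount, 0.022 relative to the T cell markers, 0.075 after quantile normalization, 0.0040 with a mean FPKM of at least 1 and 0.037 under upper quartile scaling, and from -0.036 to 0.017 without single samples. For metformin added to FK506 it was at -0.0096 in DESeq2, -0.0094 with its size factors, -0.022 on FPKM with either pseudocount, -0.019 without a filter, -0.0010 with only the groups compared and -0.0048 under upper quartile scaling, and from -0.037 to 0.027 without single samples. Its interaction was -0.0019 in DESeq2, -0.0016 with its size factors, -0.045 and -0.047 on FPKM with pseudocounts of 1 and 0.1, -0.061 after quantile normalization and -0.042 under upper quartile scaling, and from -0.021 to 0.043 without single samples. Nab2 for metformin added to FK506 passed the threshold without Metformin replicate 3 (adjusted p = 0.0363) or Metformin+FK506 replicate 3 (0.0483), and Ikzf3 for FK506 added to metformin without Metformin replicate 2 (0.0449). Causes were not tested.

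Same-numbered samples did not deviate together (0 of 18 pairs with a correlation over 0.1, and 4 of 12 samples closest to their own number). With the replicate number as a block, 10, 9, 10, 6, 9 and 8 members were called, as without it, and 12198, 8312, 12308, 4326, 11749 and 6792 of all genes.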
